A study of Mus musculus with 6 samples.

Results

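Apolipoprotein E (Apoe) and 9 other genes that load, carry, take up, store or export lipid were followed across 6 RNA-sequencing libraries of stimulated primary mouse osteocytes. The genes were Apoe, Apoc2, Lpl, Abca1, Abcg1, Fabp4, Fabp5, Cd36, Plin2 and Pltp, taken by symbol from the 56748 genes of the count table. They were chosen in part by the values described here, since Apoe is among the genes with the strongest increase in the same contrast. By fitted log2 fold change Apoe stood at place 285 of the 17146 genes tested, and by p-value at place 6 among those that were higher. The fold changes of the 10 genes are therefore given as a description, without a test of their own. Apoc2 held too few counts to be tested and the other 9 genes were tested.

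The 3 WT cultures and the 3 cultures labelled cKO came from long bones with the marrow flushed out, and were grown for 7 days. The cKO mice were Gsdmd fl/fl; DMP1-Cre, so that loss of gasdermin D, the pore-forming protein of pyroptosis, depended on a Cre recombinase driven by the Dmp1 promoter. In all 6 cultures, LPS (10 ng/mL, 3 h) was followed by aluminum hydroxide (20 µg/mL, 3 h), which triggers the inflammasome. The methods give 7 weeks as the age of the C57BL/6 mice used for osteocyte isolation, and unstimulated cultures were not analysed here.

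Apolipoprotein E coats lipoprotein particles and lets cells bind and take them up through receptors of the LDL receptor family. Macrophages that take up modified lipoproteins and fatty acids through scavenger receptors keep the lipid in droplets, and unload cholesterol onto apolipoproteins through ABC transporters. Many genes of this route are targets of the sterol-sensing LXR receptors or of the fatty acid-sensing PPAR receptors, which bind DNA together with RXR. In bone, osteocytes, osteoblasts, marrow adipocytes and macrophages all handle lipid, and none of the 10 genes marks a single cell type.

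The libraries held 39566835 to 49734046 counts on genes. Gsdmd went against the labels, with a WT mean of 13.9 ± 0.339 CPM (SD, n = 3) and a mean of 22.5 ± 1.33 CPM (SD, n = 3) among the cKO-labelled libraries. CPM are counts per 1000000 after TMM scaling. Gene counts take in every exon, so the floxed exons were not seen apart. Directions below are drawn from the labels as deposited. The X-inactivation transcript Xist was counted 0 to 4 times in the WT libraries and 44817 to 51216 times in the cKO-labelled libraries. Uty, Ddx3y and Eif2s3y, which are Y-linked, were counted 1224 to 5455 times in the WT libraries and 0 times in those labelled cKO. Sex and genotype label therefore cannot be told apart in any value below, and nothing in the labels ties the replicates to separate animals, so the spread between them may be technical. Counts of replicates differed by more than sampling noise (chi-square per gene 4.88 to 13.9), and each library was counted as 1 sample.

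Of the 8 osteocyte markers, 6 were at or near 0. Sost and Dkk1 had 0 counts in every library, Dmp1 had 0 to 6 counts per library, and Mepe, Phex and Fgf23 had 0 to 34. Irx5 was counted 207 to 302 times per library, and Pdpn, which other stromal cells also express, was abundant at 7743 to 11932 counts. Macrophage markers were present in all 6 libraries and moved with the label. Of 16 macrophage markers 14 were tested, and 14 passed and were higher in the cKO-labelled libraries, with log2 fold changes from 1.73 to 4.25 and a median of 2.98. Among them were Adgre1 (2.71, SE 0.055), Csf1r (3.17, SE 0.055), Cd68 (2.47, SE 0.051) and Lyz2 (2.20, SE 0.040), and none of the 16 was at 0 throughout. Their summed level was 1214 to 1367 CPM in WT and 6481 to 6784 CPM in the cKO-labelled libraries, 5.14-fold higher. In bulk RNA, fewer cells of a type and less RNA per cell cannot be told apart, and the part of macrophage RNA in the values below was not tested.

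Of the 10 genes, 9 were tested, and 9 passed an adjusted p limit of 0.05 (Benjamini-Hochberg adjustment of edgeR's quasi-likelihood test) with a higher level in the cKO-labelled libraries, where 20.1% of all tested genes passed as higher and 19.2% as lower. A log2 fold change of 1 or more was reached by 6 of them, against 6.56% of all tested genes on the higher side and 4.64% on the lower. For 9 of 9 the lowest cKO-labelled library lay above the highest WT library, an arrangement found for 25.3% of all tested genes, with 23.9% arranged the other way. Because the choice of genes used this contrast, nothing is read from these counts. The median log2 fold change of the 9 genes was 1.21 with a range of 0.64 to 2.75, beside 0.01 for the median of all tested genes. All 9 exceeded the filter on low counts in all 3 libraries of each group, so none entered through 1 group alone.

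**Figure D1:**
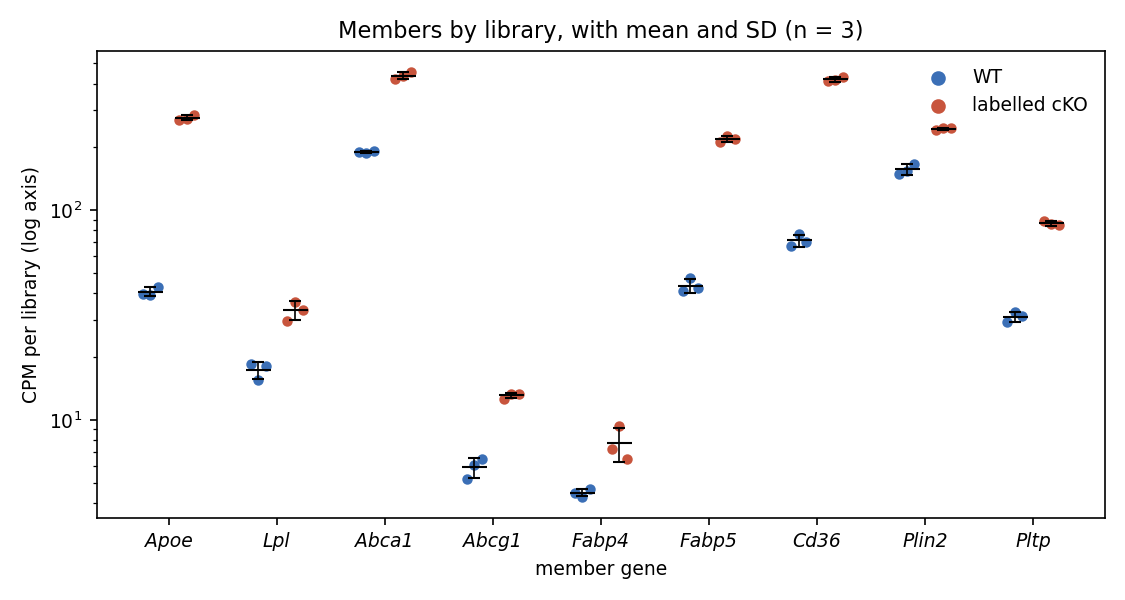
Level of each of the 9 tested lipid genes in each library (CPM, log axis), with each library as a point, and the mean and SD of each group as black bars. The 3 cKO-labelled libraries lie above the 3 WT libraries for every gene, with the widest gap for Apoe (40.8 against 275 CPM) and the narrowest for Plin2 (156 against 244 CPM).

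Apoe lies on the minus strand of chromosome 7 from 19430034 to 19433113 of GRCm39. Its level was 39.8, 39.5 and 43.1 CPM in the WT libraries and 268, 272 and 283 CPM in the cKO-labelled libraries. The groups were far apart, and within each group the libraries lay close together. The mean moved from 40.8 ± 2.00 to 275 ± 7.90 CPM (SD, n = 3 each), a 6.73-fold difference and a log2 fold change of 2.75 (SE 0.049). By level per length Apoe was at place 2327 of the tested genes in WT and at place 247 in the cKO-labelled libraries.

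Apoc2, the activator of lipoprotein lipase, lies on the same strand with its start at -21.2 kb from that of Apoe along the chromosome, and was close to absent from the table. It was counted once in 1 cKO-labelled library and 0 times in the other 5 libraries. A count of 0 allows up to 3 counts in a library, for counting error only. In GENCODE M39, 646 of the 799 bases of its canonical transcript, 80.9%, also lie in exons of the readthrough gene Apoc2l, which had 0 counts. Over all its annotated exons, 906 of 1552 bases lie outside those of Apoc2l. Reads shared by both genes can be dropped when reads are assigned to genes, so that the value of Apoc2 is uncertain and no fold is given. The neighbouring apolipoprotein genes Apoc1 and Apoc4 also had 0 counts in every library.

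From Relb to Nectin2, the tested protein-coding neighbours of Apoe had log2 fold changes between -0.75 and 0.34. Tomm40, which encodes the mitochondrial import pore and starts beyond the Apoe promoter, fell from 62.3 to 50.4 CPM (log2 fold change -0.31, SE 0.067, adjusted p 0.0014 by edgeR's quasi-likelihood test). Clptm1, on the far side of Apoc2, was at 173 CPM in WT and 166 CPM in the cKO-labelled libraries, with a log2 fold change of -0.05 (SE 0.052) that did not pass. Nectin2, a cell adhesion gene further out and named after its values were seen, fell from 56.6 to 33.5 CPM (log2 fold change -0.75, SE 0.073). Relb, an NF-kappaB subunit beyond Clptm1 that was also named after its values were seen, rose from 26.3 to 33.4 CPM (log2 fold change 0.34, SE 0.069). No fold can be given for the apolipoprotein C genes of the locus, which gave next to no counts.

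**Figure D2:**
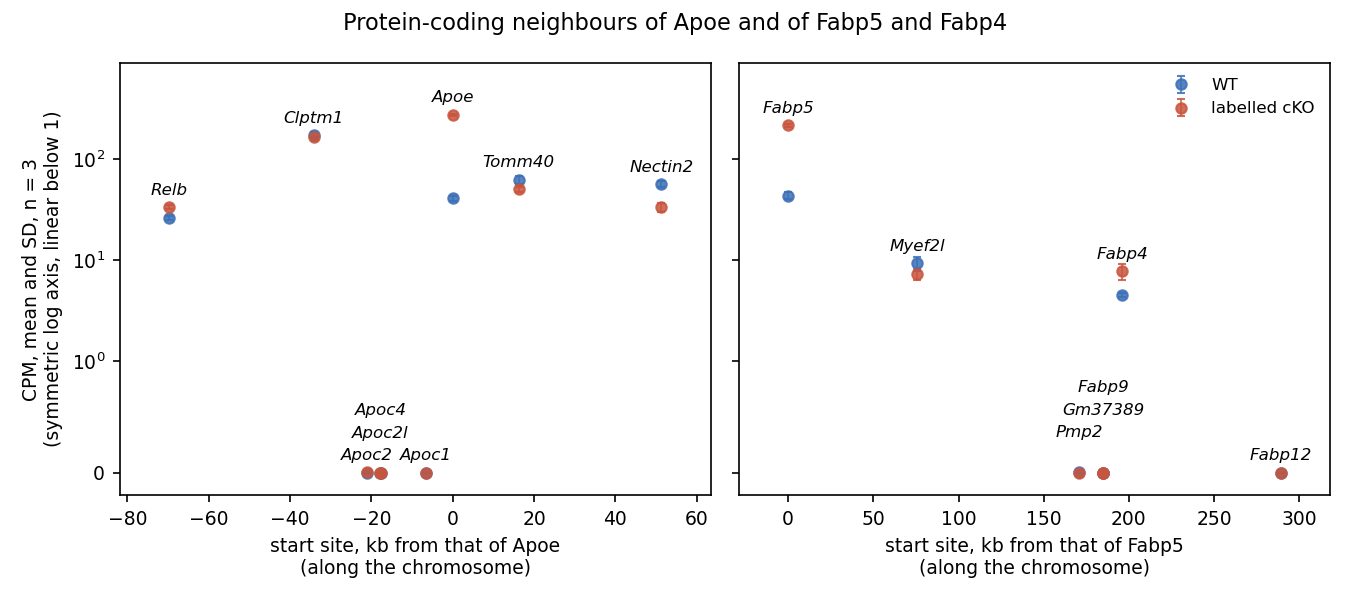
Level (CPM, symmetric log axis, points show the mean and bars the SD of 3 libraries) of protein-coding genes around Apoe and around Fabp5 and Fabp4, by distance in kb of their start from that of Apoe or Fabp5. Apoe (40.8 against 275 CPM) stands between Clptm1 and Tomm40, whose groups lie close together, and the apolipoprotein C genes lie at or near 0.

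Pltp encodes the phospholipid transfer protein, which moves phospholipid between lipoproteins, and lies on chromosome 2 from 164681438 to 164699631. It was measured at 29.3, 32.6 and 31.1 CPM in WT and at 88.2, 86.0 and 84.4 CPM in the cKO-labelled libraries. Both groups were tight and well separated. The means were 31.0 ± 1.65 and 86.2 ± 1.95 CPM (SD, n = 3 each), 2.78-fold apart, for a log2 fold change of 1.47 (SE 0.054). Apoe therefore moved further than Pltp, and the ratio of their levels per length went from 1.58 ± 0.111 to 3.82 ± 0.193 (SD, n = 3 each) without overlap between the groups.

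Lpl encodes lipoprotein lipase, which frees fatty acids from triglyceride-rich lipoproteins, and lies on chromosome 8 from 69333143 to 69360100. WT libraries gave 18.4, 15.4 and 18.1 CPM and the cKO-labelled libraries gave 29.6, 36.5 and 33.4 CPM. The spread was wider here than for Apoe or Pltp, but the highest WT library stayed below the lowest cKO-labelled library. The means of 17.3 ± 1.65 and 33.2 ± 3.46 CPM (SD, n = 3 each) differed 1.91-fold, with a log2 fold change of 0.94 (SE 0.090). A gene that acts on the lipase went the other way. Angptl4, an inhibitor of the enzyme, fell from 230 to 184 CPM, and its log2 fold change was -0.32 (SE 0.040, adjusted p 3.95e-06 by edgeR's quasi-likelihood test). Gpihbp1, which holds the enzyme on capillaries, had 0 counts in every library, so no direction can be given for it.

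A list of 22 further genes of lipoproteins and plasma lipases, written with these results known, did not follow Apoe as a group. Of the 11 that were tested, 3 were higher, 4 were lower and 4 did not pass, and the median log2 fold change was -0.32. The higher genes were Clu, Apobec1 and Apod. Clu, or clusterin, an apolipoprotein and chaperone, rose from 289 to 842 CPM (log2 fold change 1.54, SE 0.035). Apobec1, the editing enzyme of apolipoprotein B mRNA, rose from 12.3 to 43.8 CPM (log2 fold change 1.83, SE 0.096), and Apod, a lipocalin carried on lipoproteins, from 3.01 to 14.1 CPM (log2 fold change 2.22, SE 0.23). Of the other lower genes, Mttp, which loads lipid onto apolipoprotein B, fell from 10.5 to 8.18 CPM (log2 fold change -0.36, SE 0.12). The remaining lower genes were sparse, with Apob at 1.09 and 0.231 CPM and the endothelial lipase Lipg at 1.15 and 0.396 CPM in WT and in the cKO-labelled libraries. Apob passed the filter on low counts through WT, with 4 to 18 counts per cKO-labelled library. Apoa5, Apoc1, Apoc3, Apoc4 and Gpihbp1 were at 0 in every library. Without the third cKO-labelled library, 2 genes of the list were lower in place of 4.

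Cd36 encodes a scavenger receptor and fatty acid translocase, and lies on the minus strand of chromosome 5 from 17986688 to 18093799. It had 67.5, 76.7 and 70.7 CPM in WT and 409, 417 and 431 CPM in the cKO-labelled libraries. Every cKO-labelled library was far above every WT library. The mean rose from 71.6 ± 4.69 to 419 ± 11.2 CPM (SD, n = 3 each), 5.85-fold, and the log2 fold change of 2.55 (SE 0.050) was second to that of Apoe among the 9 genes.

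Receptors for lipoproteins moved in both directions. Of 14 listed receptor genes and partners, 14 were tested, 7 were higher, 4 were lower and 3 did not pass, and the median log2 fold change was 0.24. The macrophage scavenger receptor Msr1 rose from 33.1 to 234 CPM (log2 fold change 2.82, SE 0.072), and the sorting receptor Sorl1 from 6.80 to 23.2 CPM (log2 fold change 1.77, SE 0.099). Olr1, the receptor for oxidised LDL, went the other way. It had 539 to 691 counts per library in WT and 4 to 20 in the cKO-labelled libraries, so that its mean fell from 14.1 to 0.295 CPM (log2 fold change -5.55, SE 0.25). Vldlr, a receptor that binds apolipoprotein E, fell from 192 to 87.1 CPM (log2 fold change -1.14, SE 0.049), and Lrp2, or megalin, from 2.10 to 0.169 CPM (log2 fold change -3.63, SE 0.45). Lrp1, the most abundant of the receptors per length and another that binds apolipoprotein E, was at 6880 ± 448 and 6720 ± 166 CPM (SD, n = 3 each), with a log2 fold change of -0.03 (SE 0.038) that did not pass. With at least 10 counts required in every library, a filter that Olr1 and Lrp2 miss in the group where they are low, 1 receptor gene was lower in place of 4. Olr1 and Lrp2 passed the main filter through the WT libraries, so their fold changes are given as a description only. The chaperone of Lrp1, Lrpap1, was at 133 and 153 CPM and rose slightly, with a log2 fold change of 0.20 (SE 0.050). The scavenger receptors Cd36 and Msr1 were thus higher and Olr1 was lower in the same libraries. The scavenger receptor Scarb1, named after its values were seen, was at 58.9 and 56.1 CPM and did not pass (log2 fold change -0.07, SE 0.053).

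Fabp5 and Fabp4 encode fatty acid-binding proteins that carry fatty acids inside the cell. They lie in 1 cluster on chromosome 3, Fabp5 from 10077608 to 10081667 and Fabp4 from 10269148 to 10273636, with starts 196 kb apart. Fabp5 had 41.0, 47.3 and 42.4 CPM in WT and 210, 225 and 217 CPM in the cKO-labelled libraries. Its mean went from 43.6 ± 3.30 to 217 ± 7.38 CPM (SD, n = 3 each), 4.99-fold higher, for a log2 fold change of 2.32 (SE 0.056). Fabp4, the form best known from adipocytes, was scarce and moved less. It had 4.49, 4.31 and 4.66 CPM in WT and 7.30, 9.33 and 6.54 CPM in the cKO-labelled libraries, where the second library stood above the others. The means were 4.49 ± 0.175 and 7.72 ± 1.44 CPM (SD, n = 3 each), and the log2 fold change was 0.78 (SE 0.16). The coefficient of variation of Fabp4 in the cKO-labelled libraries was 18.7%, the largest of the 9 genes in that group. The ratio of Fabp5 to Fabp4 per length was 11.5, 13.8 and 11.4 in WT and 36.2, 30.3 and 41.8 in the cKO-labelled libraries, so that the balance between both genes differed beyond its spread.

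Within the cluster the remaining fatty acid-binding protein genes were at or near 0. Fabp9 and Fabp12 had 0 counts and Pmp2 had 1 count in 6 libraries. Myef2l, a gene without a lipid role that lies between both, was at 9.30 and 7.27 CPM and did not pass (log2 fold change -0.35, SE 0.14, adjusted p 0.0598 by edgeR's quasi-likelihood test). The annotated lncRNA nearest Fabp5, Gm38335, had 4, 0 and 0 counts in WT and 18, 18 and 25 in the cKO-labelled libraries. It passed the filter on low counts through the latter alone, so no fold is given.

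Of 25 further genes of fatty acid binding, uptake and activation, 16 were tested, 8 were higher, 4 were lower and 4 did not pass, for a median log2 fold change of 0.27. Slc27a1, a fatty acid transport protein, rose from 28.5 to 71.8 CPM (log2 fold change 1.33, SE 0.053). Acsl1, which activates long-chain fatty acids by joining them to coenzyme A, rose from 32.8 to 71.6 CPM (log2 fold change 1.13, SE 0.051), and Cav1, the caveolar protein, from 123 to 247 CPM (log2 fold change 1.00, SE 0.042). The 4 genes that fell did so by small amounts, namely Cpt1c (log2 fold change -0.30, SE 0.051), Slc27a4 (-0.29, SE 0.055), Cpt2 (-0.23, SE 0.082) and Acsl4 (-0.21, SE 0.043). Fabp1, Fabp2 and Fabp6, which belong to liver and gut, were at 0 together with Fabp9, Fabp12 and Slc27a2.

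Plin2 encodes perilipin 2, a coat protein of lipid droplets found in most cells that store lipid, and lies on chromosome 4 from 86566623 to 86588297. Its level was 149, 154 and 166 CPM in WT and 241, 246 and 246 CPM in the cKO-labelled libraries. The groups did not overlap, and the gap was the smallest of the 9 genes. The means of 156 ± 9.04 and 244 ± 2.60 CPM (SD, n = 3 each) differed 1.56-fold, with a log2 fold change of 0.64 (SE 0.045). Other droplet genes also moved by small amounts. Of 23 listed, 16 were tested, 8 were higher, 2 were lower and 6 did not pass. The median log2 fold change was 0.21, and 0 of the 16 reached a log2 fold change of 1 in either direction. Pnpla2, the triglyceride lipase of droplets, rose from 25.9 to 41.3 CPM (log2 fold change 0.67, SE 0.071). Bscl2, or seipin, and Dgat2, the last enzyme of triglyceride synthesis, had log2 fold changes of 0.40 (SE 0.053) and 0.37 (SE 0.055). Dgat1, which catalyses the same step, fell slightly (log2 fold change -0.20, SE 0.077), as did Ldah (-0.22, SE 0.053), and the adipocyte droplet genes Plin1 and Cidec were at 0. Of the most abundant droplet genes on the list, Hilpda, an inhibitor of Pnpla2, rose from 50.2 to 58.4 CPM (log2 fold change 0.22, SE 0.052), and Aup1 was at 68.8 and 72.2 CPM and did not pass. Of the 2 lower genes, 1 passed with library size alone as scaling, or when WT 2, WT 3, cKO 1 or cKO 2 was left out.

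Abca1 encodes the transporter that loads cholesterol onto lipid-poor apolipoproteins, and lies on chromosome 4 from 53030787 to 53159895. The WT libraries gave 188, 187 and 191 CPM and the cKO-labelled libraries gave 420, 435 and 454 CPM. Between libraries of 1 group the values hardly differed, and between groups the mean went from 188 ± 2.28 to 436 ± 17.2 CPM (SD, n = 3 each). The fold was 2.32 and the log2 fold change 1.21 (SE 0.041). Abcg1, which exports cholesterol to mature HDL and lies on chromosome 17 from 31276649 to 31336962, was much scarcer. It had 5.22, 6.11 and 6.52 CPM in WT and 12.6, 13.3 and 13.3 CPM in the cKO-labelled libraries. Its means of 5.95 ± 0.663 and 13.1 ± 0.372 CPM (SD, n = 3 each) were 2.20-fold apart, for a log2 fold change of 1.14 (SE 0.12). Both transporters moved by a like amount. The ratio of Abca1 to Abcg1 per length was 22.5 ± 2.49 in WT and 23.5 ± 0.515 in the cKO-labelled libraries (SD, n = 3 each), and the libraries overlapped. Apoe moved further than Abca1, with an Apoe to Abca1 ratio per length of 1.05 ± 0.0386 in WT and 3.05 ± 0.0391 in the cKO-labelled libraries (SD, n = 3 each).

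Of 25 further genes of sterol handling and efflux, 23 were tested, 13 were higher, 1 was lower and 9 did not pass, for a median log2 fold change of 0.18. This came to 56.5% higher and 4.35% lower, beside 20.1% and 19.2% of all tested genes. The list was written with these results known, so nothing is read from these shares. Nceh1 and Lipa encode hydrolases that release cholesterol from its esters, outside and inside the lysosome. Nceh1 rose from 37.2 to 172 CPM (log2 fold change 2.21, SE 0.067) and Lipa from 90.0 to 251 CPM (log2 fold change 1.48, SE 0.056). Arl4c, a small GTPase linked to cholesterol transport, rose from 52.2 to 160 CPM (log2 fold change 1.61, SE 0.049). The 1 gene that fell was the oxysterol-binding protein gene Osbpl5, from 88.7 to 64.3 CPM (log2 fold change -0.46, SE 0.050). The lysosomal cholesterol carrier Npc2 and the mitochondrial Tspo, the most abundant of the list per length, rose by 0.16 (SE 0.038) and 0.28 (SE 0.087) on the log2 scale.

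The receptors that sense these lipids moved in both directions, mostly by small amounts. Of 15 nuclear receptors and partners, 14 were tested, 7 were higher, 3 were lower and 4 did not pass, for a median log2 fold change of 0.12. Nr1h3, or LXR alpha, rose from 3.16 to 7.44 CPM (log2 fold change 1.23, SE 0.15). Nr1h2, or LXR beta, was far more abundant at 76.8 and 78.4 CPM and did not pass (log2 fold change 0.03, SE 0.061). Their partner Rxra rose by 0.30 (SE 0.046) and the coactivator Ncoa1 by 0.43 (SE 0.064) on the log2 scale. The fatty acid receptor Ppard fell by 0.26 (SE 0.056) on the log2 scale, and the sparse Rxrg fell from 0.596 to 0.135 CPM. Rxrg passed the filter on low counts through WT, with 4 to 7 counts per cKO-labelled library. Pparg, named for its role after its values were seen, was low and rose from 1.78 to 3.10 CPM (log2 fold change 0.80, SE 0.22). Over the 6 lists together, 46 of the 94 tested genes were higher (48.9%) and 18 were lower (19.1%), beside 20.1% and 19.2% of all tested genes. Their median log2 fold change was 0.21, beside 0.01 for all tested genes and 1.21 for the 9 genes chosen in view of this contrast. The 6 lists were also written with these results known, so nothing is read from their shares or median.

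**Figure D3:**
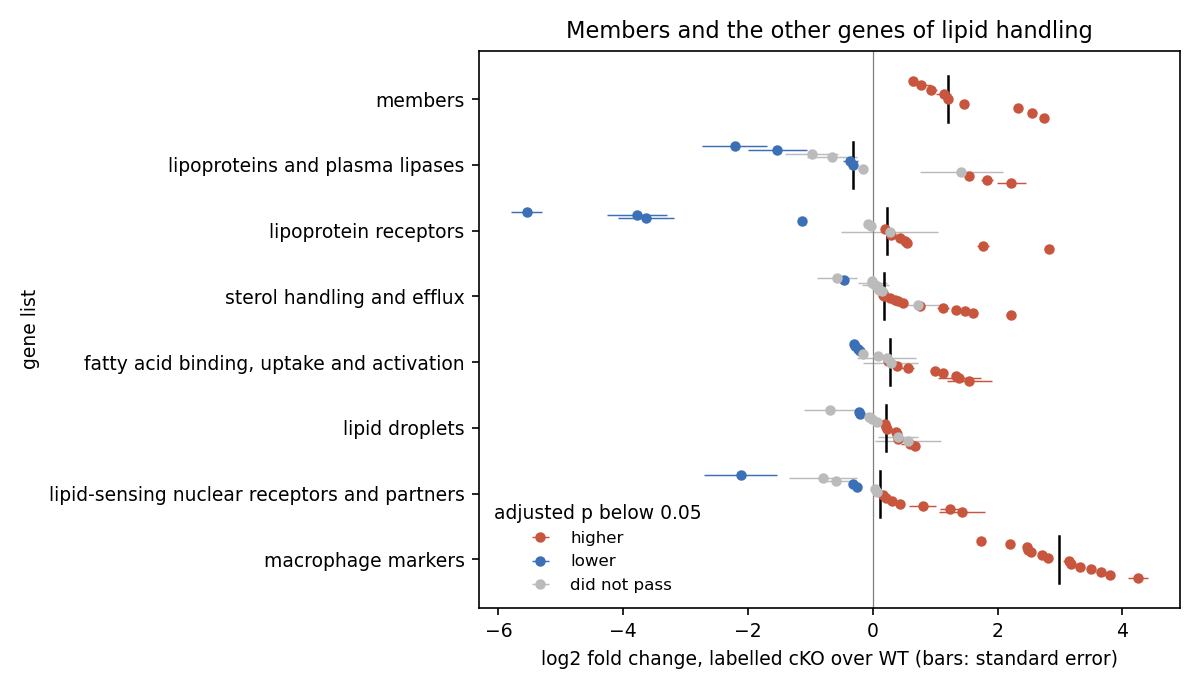
Fitted log2 fold change (cKO-labelled against WT) of each tested gene of the 9 chosen genes, the 6 lipid lists and the macrophage markers, with the SE as a bar, the median of each list as a black line and the colour showing whether the gene passed. The 9 chosen genes lie between 0.64 and 2.75, the medians of the lipid lists between -0.32 and 0.27, and that of the macrophage markers at 2.98.

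The start regions of Cd36 and Plin2 are shown because these genes lie near opposite ends of the range of fold changes (2.55 and 0.64) and both hold a match to the element bound by PPAR and RXR. The windows reach from 250 bases before to 50 bases after the start site in RefSeq on GRCm38.p6. They are read 5′ to 3′ on the minus strand at chr5:17835847-17836146 for Cd36 and chr4:86670010-86670309 for Plin2, and capitals mark the match.
Cd36: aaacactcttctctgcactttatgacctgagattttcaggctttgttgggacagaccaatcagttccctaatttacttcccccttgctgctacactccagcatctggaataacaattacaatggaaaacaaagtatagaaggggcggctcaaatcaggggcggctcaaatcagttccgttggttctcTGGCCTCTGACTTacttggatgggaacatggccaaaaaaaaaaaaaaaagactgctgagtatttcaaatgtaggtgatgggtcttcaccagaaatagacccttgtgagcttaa
Plin2: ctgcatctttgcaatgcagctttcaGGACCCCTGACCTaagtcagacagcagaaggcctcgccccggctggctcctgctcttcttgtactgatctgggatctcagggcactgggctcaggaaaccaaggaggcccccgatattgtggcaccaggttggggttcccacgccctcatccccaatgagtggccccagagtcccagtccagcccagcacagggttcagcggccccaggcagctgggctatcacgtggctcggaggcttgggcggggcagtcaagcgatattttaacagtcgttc
The motif in capitals, among others searched, was a DR1 element, AGGTCA repeated directly after 1 base of any kind. It was searched on both strands with up to 2 mismatches. It shares its AGGTCA units with the DR4 element of LXR, where 4 bases of any kind separate them. In Cd36 the match begins at -63 and in Plin2 at -225 from the start site, each on the opposite strand and with 2 mismatches. RefSeq windows were matched for 6 of the 10 genes, namely Apoe, Apoc2, Abca1, Cd36, Plin2 and Pltp, in 8 windows. Of these 8 windows 3 held a DR1 match, the third being that of Apoc2 with 1 mismatch, where 3.86% of 32851 windows of the same length held one. A DR4 match with up to 2 mismatches was in 0 of the 8 windows, those of Abca1 and Apoe included. Among all windows 3.02% held such a match. DR4 sites with more mismatches, or outside the window, were not searched, so absence of an LXR element is not read from this. Without mismatches, DR1 and DR4 were each in 0 of the 8 windows, beside 0.0396% and 0.0152% of all windows. A PU.1 site (GAGGAAGT) was in 0 of the 8, beside 3.2% of all windows. An E-box (CACGTG) was in 2 and a TATA box (TATAAA) in 3, beside 7.15% and 13.6% of all windows. All of these are matches of letters within a short window and carry no measurement of binding.

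Levels per length put the members in a different order in each group. Expressed as CPM per kb of the gene length in the table, Plin2 led in WT at 44.5 ± 2.57, followed by Cd36 at 20.0 ± 1.31, Apoe at 19.1 ± 0.933 and Abca1 at 18.2 ± 0.220 (SD, n = 3 each). The Cd36 and Apoe libraries overlapped, so their order is within the spread. Fabp5 at 12.2 and Pltp at 12.1 overlapped too, and Lpl at 1.65, Fabp4 at 1.00 and Abcg1 at 0.815 closed the order. In the cKO-labelled libraries, Apoe led at 128 ± 3.69, above Cd36 at 117 ± 3.13, Plin2 at 69.6 ± 0.740 and Fabp5 at 60.9 ± 2.07 (SD, n = 3 each). Abca1 at 42.1, Pltp at 33.6, Lpl at 3.17, Abcg1 at 1.79 and Fabp4 at 1.72 followed, and Abcg1 and Fabp4 overlapped. The gene length chosen matters for this order. With the length of the canonical transcript, a choice made after the data were seen, Fabp5 stood second in WT at 43.9 and first in the cKO-labelled libraries at 219, ahead of Apoe at 126. With that length Apoe overlapped with Cd36 at 120, and Cd36 with Plin2 at 119, in the cKO-labelled libraries.

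**Figure D4:**
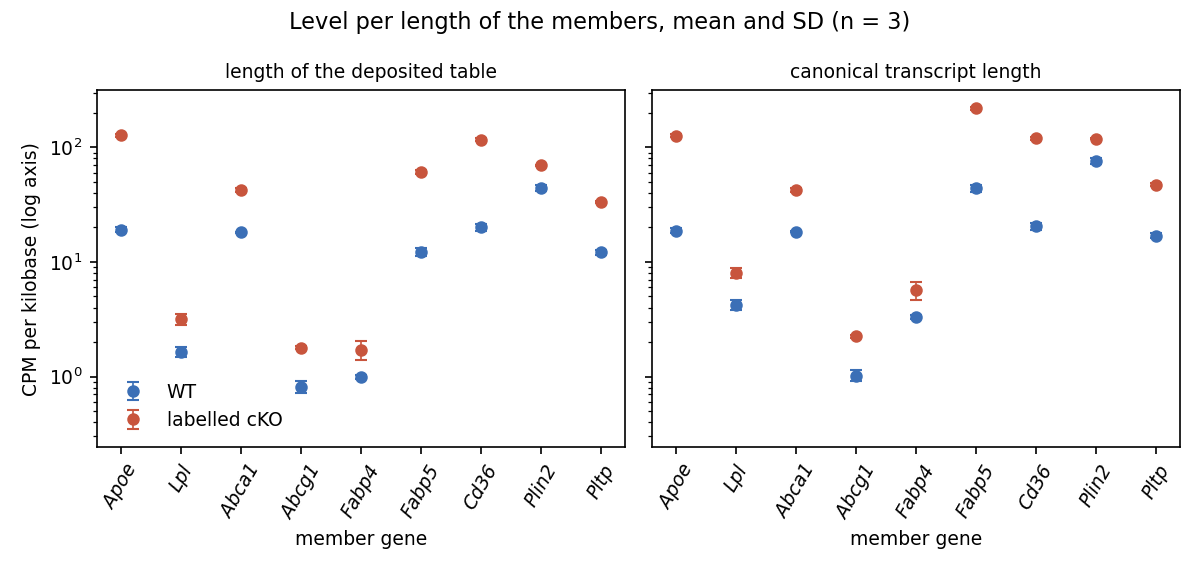
Mean level per length (CPM per kb, log axis, bars show the SD of 3 libraries) of the 9 genes in both groups, with the gene length of the table on the left and the canonical transcript length on the right. On the left Plin2 is highest in WT at 44.5 and Apoe in the cKO-labelled libraries at 128, and on the right Plin2 is highest in WT at 76.3 and Fabp5 in the cKO-labelled libraries at 219.

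The genes whose profile over the 6 libraries was most like that of Apoe were looked for among 9437 tested genes of at least 10 CPM on average, by the root mean square difference of centred log2 CPM. The nearest were Adgre1 at 0.043, Irf8 at 0.045, Gcnt1 at 0.057, Lilrb4a at 0.059 and Ccl9 at 0.064. Adgre1 encodes F4/80, a surface marker of mouse macrophages, and rose from 36.4 to 238 CPM (log2 fold change 2.71, SE 0.055). Abcg1 and Fabp4 were below 10 CPM on average and were not compared. Of the other 6 lipid genes, Cd36 was nearest to Apoe at 0.12 (place 37) and Fabp5 came next at 0.23 (place 109). Pltp was at 0.64, Abca1 at 0.77, Lpl at 0.91 and Plin2 at 1.05. With 6 libraries in 2 groups this distance reads mainly the size of the difference between the groups.

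Set against the macrophage markers, the 9 genes fell into a near and a far group. The log2 fold changes of Apoe, Cd36 and Fabp5 lay inside the range of the 14 tested markers, and those of the other 6 lay below its lower end of 1.73. Apoe per 100 CPM of summed markers was 3.28, 3.02 and 3.15 in WT and 4.14, 4.04 and 4.18 in the cKO-labelled libraries. Cd36 on the same scale went from 5.53 ± 0.341 to 6.29 ± 0.0829, and Fabp5 at 3.36 ± 0.253 and 3.26 ± 0.0681 overlapped (SD, n = 3 each). The other 6 genes were lower on this scale, from 12.1 to 3.67 for Plin2, 14.6 to 6.54 for Abca1, 2.39 to 1.29 for Pltp, 1.34 to 0.497 for Lpl, 0.458 to 0.196 for Abcg1 and 0.347 to 0.116 for Fabp4. Lyz2 made up 76.0% of the summed markers in WT and 67.8% in the cKO-labelled libraries. Without it, a setting added after the data were seen, Apoe was 13.1 ± 0.427 and 12.8 ± 0.311 and overlapped (SD, n = 3 each), Cd36 turned lower from 23.1 to 19.5, and Fabp5 was lower, from 14.0 to 10.1. The direction of Apoe and Cd36 on this scale therefore depended on 1 marker.

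**Figure D5:**
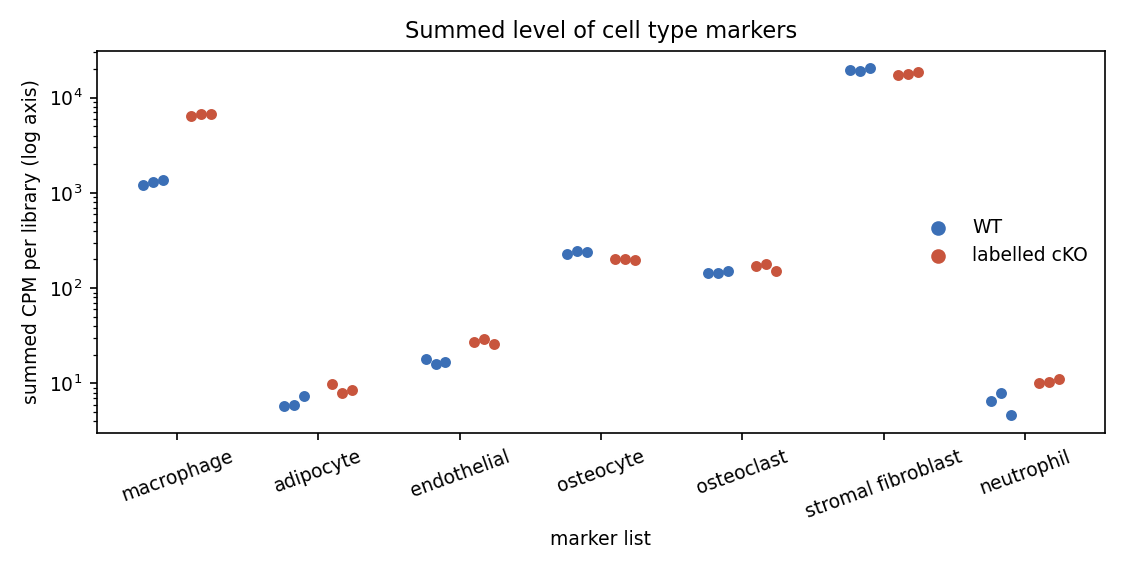
Summed level of each list of cell type markers in each library (CPM, log axis), with WT and cKO-labelled libraries as separate points. The macrophage sum is 1214 to 1367 CPM in WT and 6481 to 6784 CPM in the cKO-labelled libraries, and the adipocyte and neutrophil sums stay below 12 CPM.

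Markers of other cells that use these genes gave the following values. Of 10 adipocyte markers, Lep, Cfd, Pck1, Plin1 and Cidec were at 0 in every library, Adipoq had 0 to 8 counts, 1 of the 2 tested genes was higher and 1 was lower (0 without WT 1, WT 2, cKO 2 or cKO 3), and the sum was 5.80 to 7.29 CPM in WT and 7.95 to 9.86 CPM in the cKO-labelled libraries. Lipe, Plin1 and Cidec are also on the droplet list. The lower gene, Adrb3, had 0 to 11 counts per cKO-labelled library and passed the filter on low counts through WT. Of 8 tested endothelial markers 3 were higher and 4 were lower, and Gpihbp1 was at 0. Their sum was 15.8 to 18 CPM in WT and 25.8 to 29.6 CPM in the others. Vwf (4.46 to 14.2 CPM), Kdr (1.35 to 5.55 CPM) and Erg (3.38 to 5.38 CPM) rose. Cdh5 (1.69 to 0.197 CPM), Tek (1.09 to 0.0525 CPM), Emcn (1.11 to 0.0147 CPM) and Pecam1 (1.42 to 0.687 CPM) fell, so the sum does not stand for the list. Cdh5, Tek and Emcn had 0 to 15 counts per cKO-labelled library and passed the filter on low counts through WT. Their fall is therefore given as a description only. Osteoclast markers split, with 2 of 6 higher and 2 lower and a sum of 143 to 152 and 151 to 181 CPM. Of 8 stromal fibroblast markers 3 were higher and 3 were lower, and their sum was 18849 to 20426 CPM in WT and 17229 to 18505 CPM in the cKO-labelled libraries. Of 2 tested neutrophil markers 2 were higher, with a sum of 4.64 to 7.94 and 10.1 to 11.2 CPM and S100a9 at 0, and 1 was higher when any library other than the second of WT was left out. Of 2 tested osteocyte markers, Pdpn fell from 234 to 193 CPM and 1 did not pass, and the sum was 231 to 245 and 196 to 202 CPM. In fits with a library left out, 2 were lower without WT 3 or cKO 1, and 1 was higher without WT 3. The filter on low counts was applied again in these fits, and without WT 3 more than 2 osteocyte markers were tested. The part of these cell types in the levels of the lipid genes was not tested. Whether the markers at 0 lost reads at assignment to genes, as is possible for Apoc2, was not tested either.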

How the data were processed

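RNA from 3 WT and 3 cKO osteocyte cultures was sequenced as 150 bp paired-end reads from a directional kit. The authors trimmed the reads, aligned them to mm39 with HISAT2 2.0.5 and deposited raw counts per gene from featureCounts, for which the labels name version 1.55.0-p3 and the methods another release. The strand setting is not given in the sources used here, so overlapping and antisense genes are uncertain. Of counts from 1 to 10, 63.4% to 65.7% were even, so a read pair may have been counted as 2.

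Counts were filtered with filterByExpr, scaled by TMM and compared with glmQLFit and glmQLFTest of edgeR 4.0.16 in R 4.3.3, fitting genotype alone. Benjamini-Hochberg adjustment covered 17146 genes, and a gene passed below 0.05. The common coefficient of biological variation was 8.36%. The model was tested on simulated data. Library totals were 39566835 to 49734046 counts, and floors cover counting error only. Alternatives were DESeq2 1.42.0, limma-voom (limma 3.58.1), other scalings and filters, halved counts, a replicate block and each library left out.

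The members and lists were chosen with earlier results of these data known. Named were the 10 members, Gsdmd, per lipid list the 3 passing genes with the smallest p in each direction and the 2 most abundant per length, per marker list its first and most abundant genes and those at 0, the neighbours of Apoe, Apoc2, Fabp4 and Fabp5, and the 5 genes nearest Apoe. Of these, 2 genes are not reported here. Per-kb levels used the deposited gene length. Promoters came from RefSeq (GRCm38.p6).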

Additional observations from a re-analysis of the deposited data

How the results depend on the processing

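Under 14 alternatives, all 126 recomputed fold changes of the 9 tested lipid genes kept their direction and their side of the adjusted p limit. Lpl, at 0.94 on the log2 scale in the main fit, ranged from 0.85 to 1.01. It crossed the log2 fold change limit of 1 when cKO 1 was left out. In that fit 7 of the lipid genes reached this limit in place of 6. Apoe stayed between 2.72 and 2.79 on the log2 scale, Cd36 between 2.49 and 2.59, Fabp5 between 2.26 and 2.37, Fabp4 between 0.62 and 0.89 and Plin2 between 0.59 and 0.69. Of the counts of genes that passed, 467 of the recomputed values stayed within 1.5 times the main count and 23 did not. With at least 10 counts required in every library, the genes that fell with a log2 fold change of 1 or more numbered 522 in place of 796, the lower lipoprotein receptors 1 in place of 4, the lower endothelial markers 1 in place of 4 and the lower adipocyte markers 0 in place of 1. Fewer genes were tested, since this filter drops genes that are near 0 in either group. Genes that rose with a log2 fold change of 1 or more numbered 870 in place of 1124. With library size alone as scaling, 1 lipid droplet gene was lower in place of 2, and without the low-count filter 2 osteocyte markers were lower in place of 1. The cause of the last pair was not tested. When single libraries were left out, the lower adipocyte markers numbered 0 to 1 (0 without WT 1, WT 2, cKO 2 or cKO 3), the lower lipid droplet genes 1 to 2 (1 without WT 2, WT 3, cKO 1 or cKO 2) and the lower lipoprotein and lipase genes 2 to 4 (2 without cKO 3). The higher neutrophil markers numbered 1 to 2 (1 when any library other than WT 2 was left out), the higher osteocyte markers 0 to 1 (1 without WT 3) and the lower osteocyte markers 1 to 2 (2 without WT 3 or cKO 1). The filter on low counts was applied again in each of these fits, so the genes tested could differ. Same-numbered libraries did not deviate together (correlations of -9.23e-05, 0.00116 and -0.0136), so the numbers did not pair them. With the replicate block, 3298 genes were higher and 3098 lower, 1087 and 772 of them with a log2 fold change of 1 or more, the 9 tested members still passed, and over the 6 lipid lists 45 genes were higher in place of 46, the difference lying among the nuclear receptors and partners (6 in place of 7). Depth limits only the sparse genes here, most adipocyte and osteocyte markers among them, where a few counts decide. The value of Apoc2 is also uncertain because reads shared with Apoc2l can be dropped, which was not tested. Nor was it tested whether other genes at 0, Apoc1, Dkk1, Cfd and S100a9 among them, lost reads at assignment.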
